A study of Rattus norvegicus and synthetic construct with 4 samples.

Results

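Large-subunit ribosomal protein promoters were represented by 52 of the 3378 elements counted in a reporter assay of human pancreatic islet sequences. The elements were taken by position, as those whose midpoint lies within 2 kb of a listed start site of a large-subunit gene (hg19, as are all coordinates here). The list itself was chosen with earlier results of these data known. The list holds 43 start sites, of which 42 have a gene name and 1, on chromosome 19, has none. Start sites are listed to the kilobase, so the distance from an element to the base where transcription starts is not given, and all 52 elements lay within 1016.5 bp of the listed position. Of the 43 sites, 35 had at least 1 counted element. RPL11, RPL8, RPL7A, RPLP2, RPL19 and RPL3 had no element paired with a barcode, and RPL13 and RPL26 had 1 each that was paired with a single barcode and not counted. The label of the set rests on these positions, because an annotation of the human genome was not used here, and whether another gene starts within the same distance was not checked. At the 43 sites 59 elements were paired with a barcode, and the 7 that were not counted had 1 to 5 paired barcodes each.

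The assay was STARR-seq, in which a plasmid carries a candidate sequence within the transcript that the sequence itself can drive. Activity is read as the RNA a plasmid gives for each unit of its DNA. Elements of 198 bp, taken from human islet CAGE, which maps the capped starts of transcripts, were built into oligos of 230 bp, and each plasmid received a random barcode of 16 bases. There were 3 RNA libraries, from 3 replicate electroporations of the plasmid pool into INS1 832/13 cells with RNA taken after 24 h, and 1 library of the input plasmid DNA. INS1 832/13 is a clonal rat insulinoma line that secretes insulin in response to glucose and stands in for the beta cell, so human sequences were read by rat factors. Per the labels each replicate used 10 ug of plasmid. No transcript of the cells' own was counted, and the identity of the line could not be checked against marker genes.

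Large-subunit ribosomal proteins surround the ribosomal RNA that joins amino acids, and they form the exit tunnel, the flexible stalks and the contacts with the small subunit. Their genes are among the most strongly transcribed in growing and secreting cells, and in human cells their promoters often lack a canonical TATA box and start transcription within a run of pyrimidines. That run becomes the terminal oligopyrimidine tract of the messenger RNA, through which translation of these messages responds to nutrients and growth signals.

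The human element sequences were not used here, so the letters shown are those of barcodes, the tags by which each plasmid was counted. For 5 elements the 3 barcodes with the most plasmid DNA counts are given. This choice does not use their RNA, but it does use the DNA counts that the RNA is set against. They are examples of single plasmids and need not stand for the other plasmids of their element. All letters are lower case because no base of a barcode carries a function.
RPL27A, chr11:8704223-8704420, barcode 1: gaccctgcattgacaa
RPL27A, chr11:8704223-8704420, barcode 2: gtggctaatttttcgt
RPL27A, chr11:8704223-8704420, barcode 3: accatagtttccaatt
RPL27A, chr11:8704102-8704299, barcode 1: tttaaatatcacagag
RPL27A, chr11:8704102-8704299, barcode 2: tatattttagaatttg
RPL27A, chr11:8704102-8704299, barcode 3: ctatctcgaacatagg
RPL37A, chr2:217363473-217363670, barcode 1: atataggctagcagta
RPL37A, chr2:217363473-217363670, barcode 2: tctttagccatatata
RPL37A, chr2:217363473-217363670, barcode 3: tagaagtagttccttg
RPL21, chr13:27825391-27825588, barcode 1: tatcatgatagatttt
RPL21, chr13:27825391-27825588, barcode 2: ccgtaatatatgtgtg
RPL21, chr13:27825391-27825588, barcode 3: aagactaatataactt
RPL9, chr4:39459949-39460146, barcode 1: tatattctccctagat
RPL9, chr4:39459949-39460146, barcode 2: ttgccattttaagatc
RPL9, chr4:39459949-39460146, barcode 3: gtccaatttaccattc

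In the first RPL27A element, gaccctgcattgacaa had 251, 219 and 321 RNA counts in replicates 1, 2 and 3 against 101 plasmid DNA counts. The barcode gtggctaatttttcgt had 225, 185 and 229 RNA counts against 85 DNA counts, and accatagtttccaatt had 129, 54 and 78 against 63. Each of these plasmids of 1 element thus gave more RNA than DNA counts in at least 2 of 3 libraries, although the DNA library was sequenced more deeply. In the overlapping RPL27A element, tttaaatatcacagag had 0, 0 and 3 RNA counts against 41 DNA counts. There tatattttagaatttg had 1, 3 and 1 RNA counts against 22 DNA counts, and ctatctcgaacatagg had 3, 13 and 0 against 20. These plasmids share part of their human sequence with the first, and none had more RNA than DNA counts in any library.

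The RPL37A barcode atataggctagcagta had 132, 139 and 157 RNA counts against 86 DNA counts, tctttagccatatata had 61, 96 and 146 against 78, and tagaagtagttccttg had 33, 81 and 85 against 70. The RPL21 barcode tatcatgatagatttt had 1 RNA count in each library against 123 DNA counts, the most plasmid DNA of any barcode printed here. Its companion ccgtaatatatgtgtg had 2, 1 and 1 RNA counts against 117, and aagactaatataactt had 0, 3 and 4 against 90. The RPL9 barcodes printed here were also low in RNA. Of these, tatattctccctagat had 2, 1 and 4 RNA counts against 73 DNA counts, ttgccattttaagatc had 1, 3 and 0 against 70, and gtccaatttaccattc had 1, 0 and 0 against 37.

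The RNA libraries held 211117, 197554 and 218571 counts and the plasmid DNA library 1079728. The 52 elements were carried by 490 barcodes, with a median of 7.5 barcodes an element and a range from 2 to 42, and 17 of them had fewer than 5. Over all 3378 elements the median was 6. No counted barcode had fewer than 10 DNA counts or lacked RNA counts in all libraries, so plasmids that gave no RNA were not analysed here. Of the barcodes paired with the 52 elements, 48.0% were counted, against 42.2% over all counted elements. Activity is given as RNA over plasmid DNA after TMM normalization, in multiples of the centre of the library, so that 1 is the centre and not the output of a control sequence. Counts were summed over the barcodes of an element and tested across all 3378 elements with edgeR's quasi-likelihood test, and "called" means a Benjamini-Hochberg adjusted p under 0.05. The p-values rest on the spread between the 3 RNA libraries, because the plasmid DNA was sequenced once. That spread is not taken from each element alone, since edgeR draws it towards the spread of elements of like abundance over the whole library. An element with few RNA counts can therefore have a large SE although its own libraries hardly differ.

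A substantial minority of the ribosomal elements were active relative to the centre. Of the 52, 15 (28.8%) were called above it, against a background of 8.88% of all 3378 elements (300 elements) in the same test. The 15 lay at 15 different start sites, 14 of them with a gene name, and all 15 were above the centre in 3 of 3 RNA libraries. They were RPL27A, RPL37A, RPL27, RPL38, RPL13A, RPL23A, RPL14, RPL34, RPL41, RPL5, RPL31, RPL15, RPL28 and RPL18, with the unnamed site. Their fold over the centre ranged from 2.79 (RPL18) to 23.2 (RPL27A), with a median of 8.29. None of the 52 was called below the centre in edgeR's test, where the background was also 0 of 3378. At an unadjusted p under 0.05 in edgeR, 0 of the 52 were below and 18 above, against 26 and 457 of all elements.

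The ribosomal elements lay higher than the library at the median and upper quartile, and less so in the lower tail. Their median log2 RNA/DNA was 0.92, against -0.03 for all elements, a difference of 0.95. In the single RNA libraries the difference of medians was 0.97, 0.73 and 1.08 (mean 0.93 ± 0.18, SD, n = 3). The upper quartile was 2.24 against 0.92 for all elements and the lower quartile -0.40 against -0.82, while the 10th percentiles were -1.47 and -1.60. No counted barcode lacked RNA in all libraries, so the lower tail leaves out plasmids without RNA in both groups and is limited by that filter. Elements at 4-fold or more numbered 16 of 52 (30.8%), against 8.73% of all elements, and those at 8-fold or more numbered 8 (15.4%), against 2.07%. RNA/DNA was above the centre in 3 of 3 libraries for 26 elements (50%, background 25.8%) and below it in 3 of 3 for 13 (25.0%, background 29.4%). The other 13 stood on both sides. These shares describe a list chosen with earlier results of these data known, and the difference from the library was not tested.

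Over all elements the called share rose with the number of barcodes, so the counts were also set side by side by barcode number. Among ribosomal elements with 2 to 4 barcodes 5 of 17 were called (29.4%, background 3.38%), and among those with 5 to 9 barcodes 5 of 15 (33.3%, background 7.22%). With 10 to 19 barcodes 3 of 16 were called (18.8%, background 12.5%), and with 20 or more 2 of 4 (50%, background 22%).

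In RNA, 4.32% ± 0.175 (SD, n = 3) of all counts came from the 52 elements, against 1.42% in plasmid DNA. A pair of elements, at RPL27A and RPL37A, accounted for 55.3% ± 1.84 of the RNA counts of the 52 and for 14.6% of their DNA counts. The other 50 elements made up 1.93% ± 0.159 of all RNA counts, against 1.21% of all DNA counts. The 15 called elements together held 85.2% ± 0.641 of the RNA counts of the 52, against 36.8% of their DNA counts.

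Of the pair of genes for proteins that carry 5S ribosomal RNA into the large subunit, and that restrain MDM2 when free, only RPL5 was counted. Its element (chr1:93297504-93297701) had 185, 105 and 220 RNA counts against 237 DNA counts over 9 barcodes, and RNA/DNA was 6.69, 3.97 and 7.73 times the centre. All libraries were well above the centre, with a log2 ratio of 2.61 ± 0.52 (SE) and an edgeR adjusted p of 8.51e-05. Of its 9 barcodes, 6 were above the centre and 3 had fewer than 5 RNA counts in every library.

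Genes for proteins of the peptide exit tunnel and its rim, where the nascent chain emerges and meets folding and targeting factors, gave 2 called elements among 7 at 6 genes. That is a share of 28.6%, beside 28.8% of the whole set and 8.88% of all elements. These 7 elements are too few to tell their share apart from either. The highest was RPL23A, whose protein is a docking site for the signal recognition particle. Its element (chr17:27046928-27047125) had 384, 307 and 516 RNA counts against 377 DNA counts, or 8.73, 7.30 and 11.4 times the centre. The log2 ratio was 3.19 ± 0.37 (SE, adjusted p = 6.52e-11 in edgeR), and all 12 of its barcodes lay above the centre, from 3.48 to 17.9 times. RPL31, a rim protein, had 121, 40 and 102 RNA counts against 130 DNA counts over 4 barcodes (chr2:101618661-101618858), which gave 7.97, 2.76 and 6.53 times the centre. Replicate 2 was the lowest. Its log2 ratio of 2.52 ± 0.77 (SE) had an adjusted p of 0.0191 in edgeR and of 0.0527 to 0.205 when any 1 RNA library was left out.

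The remaining exit tunnel elements were not called. RPL4 extends a loop into the tunnel wall, and its element (chr15:66797068-66797265) had 4, 13 and 4 RNA counts against 277 DNA counts over 11 barcodes. That is 0.124, 0.421 and 0.120 times the centre, low in all libraries, with a log2 ratio of -2.17 ± 1.56 (SE, adjusted p = 0.679 in edgeR). RPL35 was similar in direction, with 8, 0 and 0 RNA counts against 92 DNA counts on 3 barcodes. RPL17 had 2 elements on opposite sides of the centre, with log2 ratios of -1.03 over 19 barcodes and 0.82 over 2. RPL22 had a log2 ratio of 0.29, and replicate 3 stood apart at 2.22 times the centre while replicates 1 and 2 were at 0.702 and 0.734.

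Genes for proteins on the face towards the small subunit gave 1 called element among 9 at 4 genes. That share of 11.1% lies near the 8.88% of all elements, but 9 elements are again too few to tell such shares apart. RPL41, which encodes a very short basic peptide buried at the interface, had 88, 19 and 99 RNA counts against 85 DNA counts over 3 barcodes (chr12:56510321-56510518). It stood at 8.87, 2.00 and 9.70 times the centre, again with replicate 2 the lowest. Its log2 ratio of 2.77 ± 0.94 (SE) gave an edgeR adjusted p of 0.0491, close to the threshold, which ranged from 0.0564 to 0.428 when any 1 library was left out. RPL30, whose yeast protein regulates the splicing of its own message, had 2 elements with log2 ratios of 0.19 and 1.20. RPL23 had a log2 ratio of 0.16 on 3 barcodes.

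Stalk genes had only 4 elements, and none was called, a number too small to set against the 8.88% of all elements. The stalk recruits the elongation factors, with RPLP0 as the anchor of the acidic proteins RPLP1 and RPLP2 and RPL12 at its base. RPLP0 had 1, 1 and 3 RNA counts against 86 DNA counts on 3 barcodes, with a log2 ratio of -2.56 ± 1.68 (SE). RPLP1 had 33, 6 and 36 RNA counts against 240 DNA counts on 6 barcodes and a log2 ratio of -0.18. RPL12 had both the lowest log2 ratio of all 52 elements, -2.72, and a neighbouring element at 2.11 that narrowly missed the threshold (adjusted p = 0.0509 in edgeR). RPL10A, the protein of the mobile stalk on the other side of the subunit, had 0, 2 and 3 RNA counts against 35 DNA counts on 2 barcodes.

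The remaining named genes, of no single role, held 29 of the 52 elements at 19 genes, with a median log2 ratio of 1.29. Of the 29, 10 were called (34.5%), against 28.8% of the 52 and 8.88% of all elements. RPL27A, a core protein found in ribosomes of all domains of life, had the highest of the 52. Its element (chr11:8704223-8704420) had 2613, 2331 and 2538 RNA counts against 926 DNA counts over 27 barcodes, or 24.2, 22.6 and 22.8 times the centre. The libraries hardly differed. Its log2 ratio was 4.53 ± 0.22 (SE, adjusted p = 4.02e-30 in edgeR), and no other element of the library with at least 5 barcodes was higher. Every one of the 27 barcodes had 5 or more RNA counts in all 3 libraries, and barcode ratios ran from 6.13 to 66.5 times the centre.

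RPL37A, which encodes a small zinc-binding protein, followed with 2384, 2370 and 2713 RNA counts against 1310 DNA counts over 42 barcodes (chr2:217363473-217363670). RNA/DNA was 15.6, 16.2 and 17.2 times the centre, with a log2 ratio of 4.03 ± 0.21 (SE, adjusted p = 5.56e-28 in edgeR). All 42 barcodes were above the centre, and the best of them held only 6.20% of the RNA counts of the element. RPL27A and RPL37A were the only ribosomal elements at 16-fold or more, a level that 10 of the 3378 elements reached.

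RPL27, RPL38 and the unnamed site stood near 14-fold on few plasmids. RPL27 (chr17:41150364-41150561) had 155, 185 and 212 RNA counts against 112 DNA counts over 5 barcodes, or 11.9, 14.8 and 15.8 times the centre (log2 3.82 ± 0.54 SE, adjusted p = 3.55e-08 in edgeR). RPL38, a protein that in mice is needed for the translation of certain Hox messages, had 123, 176 and 277 RNA counts against 117 DNA counts over 3 barcodes (chr17:72199732-72199929). It stood at 9.01, 13.5 and 19.7 times the centre, a wider spread than that of RPL27, with a log2 ratio of 3.81 ± 0.54 (SE, adjusted p = 4.28e-08 in edgeR). The unnamed site (chr19:17970628-17970825) had 126, 142 and 92 RNA counts against 73 DNA counts on 2 barcodes, of which 1 held 78.6% of the RNA counts, and a log2 ratio of 3.82 ± 0.69 (SE, adjusted p = 1.22e-05 in edgeR).

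RPL14 and RPL34 were high on 6 and 17 barcodes, and the best barcode of RPL14 held 31.5% of its RNA counts. RPL14 (chr3:40498738-40498935) had 394, 248 and 335 RNA counts against 337 DNA counts over 6 barcodes and stood at 10.0, 6.59 and 8.28 times the centre (log2 3.05 ± 0.40 SE, adjusted p = 3.53e-09 in edgeR). RPL34 (chr4:109541650-109541847) had 444, 553 and 615 RNA counts against 583 DNA counts over 17 barcodes, or 6.52, 8.50 and 8.78 times (log2 2.99 ± 0.32 SE, adjusted p = 4.28e-12 in edgeR). All 6 barcodes of RPL14 and all 17 of RPL34 were above the centre. RPL13A, which in human monocytes also leaves the ribosome to silence inflammatory messages, had 68, 63 and 43 RNA counts against 53 DNA counts on 2 barcodes (chr19:49990778-49990975). Its log2 ratio of 3.23 ± 1.05 (SE, adjusted p = 0.0329 in edgeR) rested for 81.0% of the RNA counts on 1 barcode, and the adjusted p was 0.0785 to 0.210 when any 1 library was left out.

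RPL15, RPL28 and RPL18 were called at lower folds. RPL15, 1 of several large-subunit genes mutated in Diamond-Blackfan anaemia, had 229, 139 and 297 RNA counts against 427 DNA counts over 8 barcodes (chr3:23958550-23958747), or 4.59, 2.92 and 5.79 times the centre (log2 2.15 ± 0.44 SE, adjusted p = 0.000134 in edgeR). RPL28, which budding yeast lacks, had 158, 142 and 244 RNA counts against 361 DNA counts over 9 barcodes (chr19:55897194-55897391), or 3.75, 3.52 and 5.63 times (log2 2.10 ± 0.48 SE, adjusted p = 0.000626 in edgeR). RPL18 (chr19:49122334-49122531) had 184, 185 and 122 RNA counts against 507 DNA counts over 13 barcodes, or 3.11, 3.27 and 2.00 times, the lowest called fold of the 15 (log2 1.48 ± 0.47 SE, adjusted p = 0.0284 in edgeR). Without RNA replicate 1 its adjusted p was 0.0741 and without replicate 2 it was 0.266.

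Elements of these genes were also found near or below the centre. RPL21 (chr13:27825391-27825588) had 39 barcodes, second in number only to RPL37A among the 52, and 111, 114 and 114 RNA counts against 1399 DNA counts. RNA/DNA was 0.680, 0.730 and 0.679 times the centre in libraries that scarcely differed, with a log2 ratio of -0.52 ± 0.43 (SE, adjusted p = 0.765 in edgeR). Its counted barcodes were mixed, with 11 of the 39 above the centre and the highest at 5.84 times. These 39 were counted out of 143 paired with the element, whereas 42 of 50 were counted for the called RPL37A element. Plasmids without RNA counts were not in the count table, so the RPL21 ratio describes the counted plasmids only. RPL9, whose protein sits near the base of the stalk, had an element (chr4:39459949-39460146) with 8, 7 and 8 RNA counts against 346 DNA counts over 10 barcodes, or 0.198, 0.181 and 0.193 times the centre (log2 -2.38 ± 1.46 SE, adjusted p = 0.556 in edgeR). None of its 10 barcodes reached 5 counts in any library. RPL36 had 15 barcodes and a log2 ratio of -0.18 ± 0.87 (SE), and RPL37 had 10 and -1.01 ± 1.29. RPL32, with 18 barcodes and a log2 ratio of 0.42 ± 0.65 (SE), and RPL6, with 13 and 0.92 ± 0.61, were above the centre in 3 of 3 libraries. None of these 4 was called. RPL36AL, an intronless relative of RPL36A, had 36, 4 and 1 RNA counts on 2 barcodes, so replicate 1 alone was above the centre.

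At 13 start sites more than 1 element was counted, 30 elements in all, which shows how activity varied within a promoter region. Exactly 1 element was called at 5 of these sites, none at 8, and more than 1 at no site. Among the 22 sites with a single element, 10 were called. Over all 3378 elements 8.88% were called. No such share was taken for library elements with and without neighbours, so these counts have no matched background. Elements at 1 site were compared as the log2 ratio of the element at the higher coordinate minus that at the lower, with a pseudocount of 0.5 counts, in each RNA library. The libraries share the plasmid DNA counts of each element, and these differences were not tested.

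At RPL27A 3 elements were counted. The middle one, at 23.2-fold, shared 77 bp with the element to its left (chr11:8704102-8704299), which had 9, 37 and 39 RNA counts against 129 DNA counts over 6 barcodes. The middle element was higher by 5.27, 3.12 and 3.17 on the log2 scale (mean 3.85 ± 1.23, SD). The third (chr11:8704666-8704863) began 245 bp beyond the end of the middle one and had 46, 14 and 69 RNA counts against 170 DNA counts over 9 barcodes, a difference from the middle one of -3.37, -4.89 and -2.75. Neither flanking element was called, with log2 ratios of 0.92 and 1.10, and their difference changed sign between libraries.

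The contrast was as large at RPL37A and RPL27. The RPL37A neighbour (chr2:217363918-217364115) had 5, 9 and 19 RNA counts against 121 DNA counts over 4 barcodes, and its difference from the strong element was -5.33, -4.53 and -3.69, with 247 bp between them. At RPL27 the neighbour (chr17:41150658-41150855) had 5, 6 and 1 RNA counts against 93 DNA counts over 4 barcodes, 96 bp beyond the strong element, and differed from it by -4.55, -4.57 and -6.88. At RPL41 the second element (chr12:56510461-56510658), which shared 58 bp with the called one, had 25, 19 and 24 RNA counts against 152 DNA counts over 7 barcodes and differed by -2.63, -0.83 and -2.86. At RPL15 the second element had 2 barcodes, with 19, 4 and 0 RNA counts against 34 DNA counts, and the order of the pair changed between libraries.

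RPL24, a late-joining protein that bridges to the small subunit, was the only site with 4 elements, laid out in steps across the region, and none was called. From low to high coordinate they had log2 ratios of -1.47, 0.03, 1.92 and -0.69. The first (chr3:101405274-101405471) had 9, 7 and 23 RNA counts against 308 DNA counts over 10 barcodes, or 0.25, 0.204 and 0.622 times the centre. The second (chr3:101405438-101405635) had 56, 94 and 42 against 547 over 20 barcodes, or 0.877, 1.54 and 0.639 times, on both sides of the centre. The third (chr3:101405538-101405735) had 45, 72 and 38 against 118 over 4 barcodes, or 3.27, 5.47 and 2.68 times. The fourth (chr3:101405638-101405835) had 12, 5 and 14 against 142 over 5. The third thus shared 98 bp with the second and 98 bp with the fourth, and was higher than both in every library, by a mean of 1.93 ± 0.12 (SD) over the second.

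Other sites held elements of unlike output without a call. At RPL12 the elements shared 27 bp, and the one at the higher coordinate (chr9:130213709-130213906) had 85, 72 and 104 RNA counts against 173 DNA counts, while the other (chr9:130213538-130213735) had 1, 2 and 4 against 134. Their difference was 4.71 ± 0.67 (SD, n = 3). At RPL9 the second element had 98, 94 and 83 RNA counts against 324 DNA counts over 14 barcodes, and was higher than the first by 3.59 ± 0.18. At RPL29 the difference was 2.73 ± 0.35. At RPL35A it was 2.71 ± 0.21, with the lower element near the centre (log2 0.04 over 16 barcodes). The element at the higher coordinate was above in both. At RPL21 the direction was the other way. The element with 39 barcodes differed by -1.79 ± 0.38 from the one to its left (chr13:27825299-27825496), which shares 106 bp with it and had 64, 112 and 82 RNA counts against 301 DNA counts over 10 barcodes. The remaining element there (chr13:27825636-27825833) had 0, 5 and 5 RNA counts against 31 DNA counts on 2 barcodes.

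The ribosomal elements were read through single plasmids of very different output. Barcodes with 5 or more RNA counts made up 40.2% of the 490 in replicate 1 (exact 95% confidence interval 35.8 to 44.7%), 35.9% in replicate 2 (31.7 to 40.3%) and 40.6% in replicate 3 (36.2 to 45.1%). Over all 35153 barcodes the shares were 22.7, 22.1 and 23.4%. Among the 490, 125 (25.5%) reached 5 counts in all 3 libraries, against 6.43% of all barcodes, and 44.7% reached it in none, against 54.8%. The strongest elements of RPL27A and RPL37A supplied 62 of the 125. Over the 421 barcodes of the other 50 elements, an alternative chosen after seeing the data, 63 (14.96%) reached 5 counts in all 3 libraries and 52.0% in none, and the shares in replicates 1, 2 and 3 were 30.4, 26.4 and 31.8%. The intervals take barcodes as independent, which barcodes of 1 element are not, and PCR reads without molecular identifiers are not independent molecules.

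The called elements differed in how many plasmids carried their signal. At RPL27A, RPL37A, RPL34, RPL23A and RPL18, the last of these the lowest called fold, no barcode held more than 19% of the RNA counts. At RPL5 the best barcode held 23.3% and at RPL28 28.7%, where barcode ratios ran from 0.121 to 40.0 times the centre. The best barcode held 41.8% at RPL38, 41.1% at RPL31 and 50.5% at RPL41, each with 3 or 4 barcodes. Of the called elements 5 had fewer than 5 barcodes. RPL35A had the highest log2 ratio that was not called, 2.78 ± 1.01 (SE) on 5 barcodes with an adjusted p of 0.0771 in edgeR, and 56.9% of its RNA counts came from 1 barcode.

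The RNA libraries correlated over the 52 elements. As a description without a test, Pearson's r of log2 RNA/DNA over the 52 was 0.788 between replicates 1 and 2, 0.743 between 1 and 3, and 0.829 between 2 and 3, with a pseudocount of 0.5 counts. Over all 3378 elements the values were 0.522, 0.530 and 0.525. The libraries share the plasmid DNA counts that form the denominator, and elements at 1 start site can share sequence.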

How the data were processed

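The deposited count table holds raw counts per barcode in 1 plasmid DNA and 3 RNA columns, beside a deposited table pairing 86107 barcodes with 4323 elements. Counts are whole numbers with a different total in each library. The count table is named as filtered. How it was filtered, how barcodes were matched and whether molecular identifiers were used is not given in the sources used. Coordinates are on hg19, per the submitters' processing notes. Starts are counted from 1.

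Groups came from sample titles. Counts were summed per element. Elements needed at least 2 barcodes and 10 plasmid DNA counts, which removed none, and were fitted with edgeR 4.0.16 in R 4.3.3 (TMM, quasi-likelihood, Benjamini-Hochberg over 3378 elements at 0.05). TMM factors were 0.876, 0.895 and 0.870 for the RNA libraries and 1.47 for the DNA. The SE is the absolute log2 ratio over the square root of F. The fit was tested on simulated data. DESeq2 1.42.0 and limma 3.58.1 were alternatives. Summaries used pandas 2.3.3, numpy 2.4.6 and scipy 1.17.1 under Python 3.11.15. The replicates are separate electroporations of 1 plasmid pool.

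The elements and lists were chosen with earlier results of these data known. Values per library are given for called elements, for those with at least 20 barcodes, for the 3 lowest log2 ratios among those with at least 10 barcodes, and for neighbours at their sites. Other elements were named to account for every gene. A planned comparison with small-subunit genes and a search for promoter motifs were not run, since a human annotation and sequence were not used here. The barcodes printed were chosen after the data were examined.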

Additional observations from a re-analysis of the deposited data

How the results depend on the processing

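Over all alternatives run, 8 to 21 of the 52 elements were called. Library totals in place of TMM gave 10 of 52 and 169 of 3378 and moved the ribosomal median log2 ratio to 0.19 and that of all elements to -0.77, so the difference stayed at 0.95. When barcode RNA counts from 1 to 4 were replaced by 0, 8 elements at 8 sites were called (115 over the library, 3 sites with exactly 1 called element among several) and the median was 0.21, with a difference of 1.06. limma-voom called 21 of 52 (511 over the library, 11 such sites) with a median of 0.55, and it also called 136 elements below the centre, among them the lower elements of RPL9 and RPL12 and that of RPL35. DESeq2 size factors in the edgeR fit called 16 of 52 (312 over the library). With at least 5 barcodes and 50 DNA counts, 10 of the 35 elements left were called, against 268 of 2223 over the library. DESeq2's test called 17 of 52 and 419 in all, and left 18 of the 52 and 1572 of all elements without an adjusted p. Library totals in the edgeR fit called the RPL21 element with 39 barcodes below the centre (log2 -1.26, adjusted p = 0.0401). Over the library 50 elements were called below in that setting. Leaving out 1 RNA replicate gave 11 to 12 calls and sites, 193 to 289 over the library (193 without replicate 2), medians of 0.67 to 0.78, differences of 0.73 to 0.83 and 4 sites with exactly 1 call. Without the top barcode of each element 13 of the 45 elements tested were called, against 286 of 2932 over the library, with a median of 0.75. Leaving out the RPL27A and RPL37A sites or the unnamed site, both chosen after seeing the data, gave 13 of 47 and 14 of 51 calls. A limit of 1 kb gave 15 of 51 calls and 1 element a gene gave 14 of 35. These changes of the list left the 300 calls over the library as they were. RPL27A, RPL37A, RPL27, RPL38, RPL23A, RPL14, RPL34 and the unnamed site were called under every alternative that tested them. Of 11 alternatives, 9 tested the unnamed site, which was left out of those without the top barcode and with at least 5 barcodes. RPL38 was tested by 10, without the one with at least 5 barcodes. The other 7 called elements were lost under at least 1: RPL5 and RPL15 under 1, RPL28 under 2, RPL18 under 4, RPL13A and RPL31 under 5 and RPL41 under 6. The uncalled RPL24 element from 101405438 changed sign, to -0.70 with library totals, -0.078 with limma-voom, -0.00055 with at least 5 barcodes and 50 DNA counts, -0.81 with low RNA counts set to 0 and -0.40 without RNA replicate 2, and it was 0.27 without replicate 3. A pseudocount of 0.5 moved 1 of 20 named elements by more than its spread between libraries, and counting a barcode as high at 2 or more RNA counts in place of 5 moved the share of high barcodes of 11 of 20, as for RPL28 (85.2%, against 55.6%). The cause of these changes was not tested. No paired analysis was possible because the plasmid DNA library carries no replicate number.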
